A study of Homo sapiens with 6 samples.

Results

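Adhesion G protein-coupled receptors are cell-surface receptors with a long extracellular part that binds matrix proteins or proteins of neighbouring cells, joined to the membrane-spanning part of a G protein-coupled receptor. Most of them cut themselves at a site just outside the membrane, and the short stretch behind the cut can act as a tethered agonist that switches the receptor on. In embryonic kidney cells they are mainly known from transfection work, since HEK293 is a common host for testing their signalling. The genes were taken by symbol: ADGR, then a subfamily letter and 1 digit. This gave 29 of the 58395 genes in the count tables, in subfamilies A (3 genes), B (3), D (2), E (4), F (5), G (7), L (4) and V (1). Another 6 rows with an ADGR symbol are pseudogenes or antisense RNAs and were left out.

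RNA was measured in 6 clonal lines of HEK293, an established human cell line of embryonic kidney origin. GST lines 2, 8 and 9 overexpressed glutathione S-transferase with the tag written 3F (GST-3F), and NOCT lines 4, 11 and 12 overexpressed nocturnin without residues 2 to 15 with the same tag (NOCT ∆(2-15)-3F). Each line is 1 clone, all 6 carry an overexpressed tagged protein, and every line grew for 3 days before harvest. The promoter that drives the proteins is not given in the sources used here.

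The libraries held 19729745 to 24422406 gene counts, so that 3 counts, the most that a count of 0 allows, corresponded to 0.123 to 0.152 CPM (counts scaled to equal library size) before TMM scaling, which all other CPM values include. Such limits cover counting error only. Each library held the construct of its label, with 46 to 88 counts of the GST construct in GST lines against 0 to 1 in NOCT lines, and 46 to 82 counts of the NOCT construct in NOCT lines against 3 to 7 in GST lines. All 7 markers fixed for HEK293 were over 3 counts in a library, but so were 5 of 5 glial, 4 of 6 endothelial and 3 of 7 leukocyte markers. NEFL, the light neurofilament, was at 32.5 to 57.3 TPM (transcript abundance per gene length, scaled to a fixed total per library). Of the 7 HEK293 markers 6 averaged at least 1 TPM, against 1 glial marker and 0 endothelial or leukocyte markers. The exception was the neurofilament gene NEFM, with 137 counts in NOCT line 12 and 4 to 9 in the other lines. PAX2, a kidney lineage factor, was lower in the NOCT lines (log2 fold change -2.13, SE 0.30, edgeR adjusted p 0.0567). The keratin genes KRT8 (1.11, SE 0.26, adjusted p 0.159) and KRT18 (0.63, SE 0.19, adjusted p 0.224) were higher. Of the 6 HEK293 markers tested, 3 had an unadjusted edgeR p under 0.05, beside 13.9% of all genes. The groups were separate in CPM for 3 of the 6, beside 20.0% of all genes. Whether these markers bear on the receptor genes was not tested. Leukocyte markers summed to 0.527 to 1.08 TPM in GST lines and 0.452 to 1.26 TPM in NOCT lines, with CD3E and NKG7 at 0 in all 6. Endothelial markers summed to 0.711 to 1.82 and 0.11 to 1.07 TPM, and glial markers to 4.21 to 4.70 and 4.13 to 5.77 TPM. The highest mean of each list was that of CD14 (leukocyte, 0.434 to 0.987 TPM), KDR (endothelial, 0.022 to 1.66 TPM) and MBP (glial, 2.95 to 4.31 TPM). KDR was lower in the NOCT lines (log2 fold change -1.92, SE 0.72, edgeR adjusted p 0.293).

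The receptors ranged from clear expression down to the counting limit. A mean of at least 1 TPM over the 6 lines was reached by 12 of the 29 genes. ADGRB3 was among these 12 through its GST lines, with a mean of 5.07 TPM against 0.154 TPM in NOCT lines. Of the genes with a lower mean, 8 had at most 3 counts in every library: ADGRD2, ADGRE1, ADGRE3, ADGRF1, ADGRG3, ADGRG5, ADGRG7 and ADGRL4. No member was at 0 in all 6 libraries, but ADGRF1, ADGRG5 and ADGRG7 had 1 count in total each. The edgeR filter on low counts passed 16 genes. A further 5, ADGRA1, ADGRD1, ADGRF2, ADGRG1 and ADGRG4, exceeded 3 counts in some library and did not pass it. ADGRE1 and ADGRE3 are receptors of myeloid cells, and ADGRL4 is a receptor of endothelium.

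**Figure D1:**
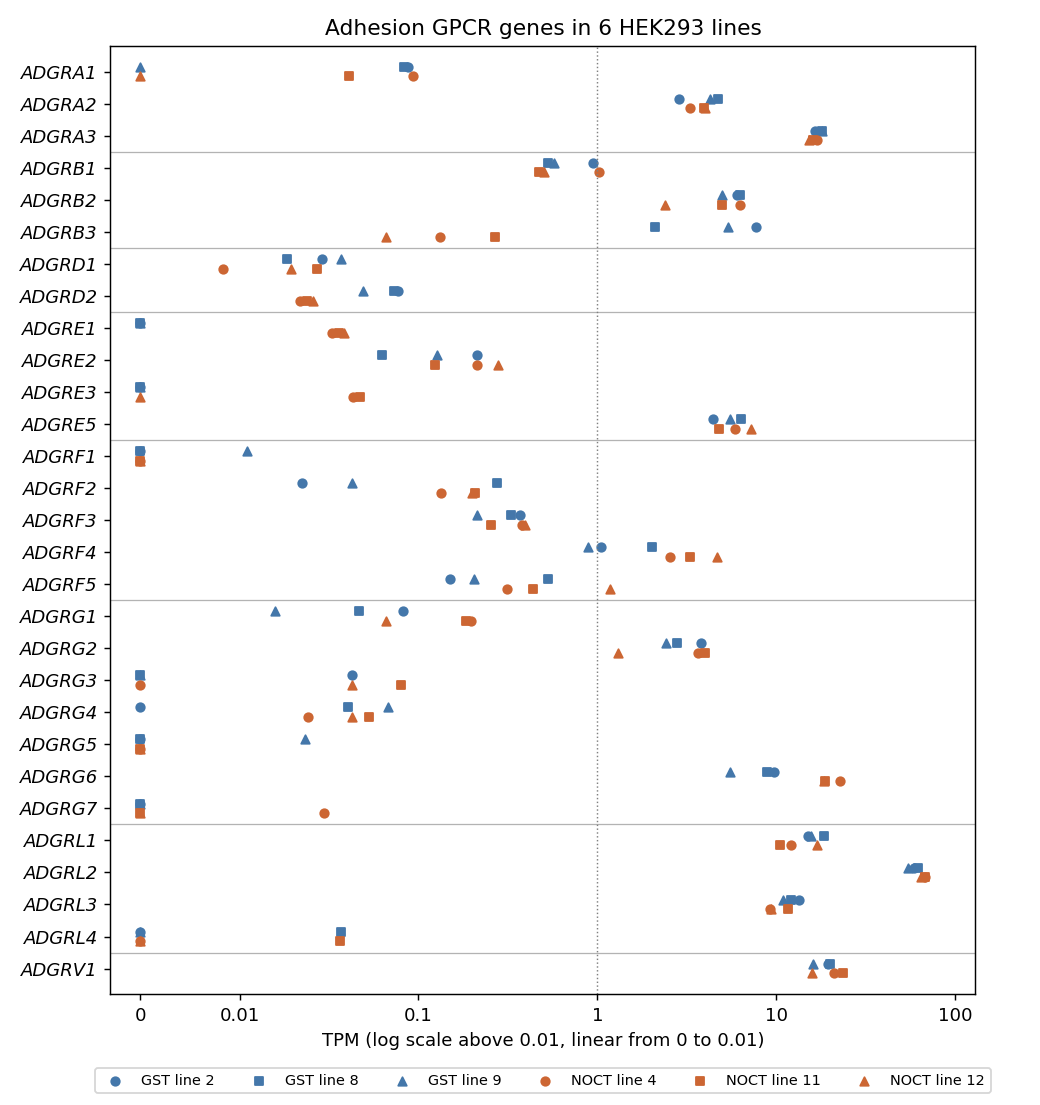
TPM of the 29 adhesion receptor genes (rows, grouped by subfamily) in the 3 GST lines (blue) and 3 NOCT lines (orange), on a log axis above 0.01 TPM, with 1 symbol per line and a dotted line at 1 TPM. ADGRL2 stands alone at 54.4 to 68.0 TPM, ADGRB3 falls apart into a blue and an orange group, and 8 genes sit at or near 0.

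Among the 29 genes, the latrophilins (subfamily L) made up most of the summed TPM. The CELSR genes of subfamily C, described below, are not in this sum. Latrophilins sit at synapses and cell contacts and bind teneurins and FLRT proteins on the facing cell. ADGRL2 was at 59.3, 62.1 and 54.4 TPM in GST lines 2, 8 and 9 and at 68.0, 67.7 and 64.6 TPM in NOCT lines 4, 11 and 12. Its lowest line lay above the highest line of every other member, and the subfamily held 54.1% of the summed TPM of the 29 genes. ADGRL1 averaged 14.8 TPM and ADGRL3 11.1 TPM, while ADGRL4 had 1 count in each of 2 libraries. ADGRV1, a very large receptor of hair cell stereocilia whose loss causes Usher syndrome, was the next gene after ADGRL2 with 15.8 to 23.7 TPM. It also had the most counts of all members, 3767 to 6026 per library, over exons of 33822 bases.

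Below these, most genes next to each other in the order of levels had overlapping ranges. Genes further apart could be separate, as ADGRA3 (lowest line 15.3 TPM) was from ADGRL3 (highest line 13.5 TPM). The ranges of ADGRG6, ADGRB3 and ADGRF4 pool GST and NOCT lines that lay apart. The 6-line ranges of neighbours in the order overlapped all the way from ADGRV1 through ADGRA3 (mean 16.8 TPM), ADGRL1 and ADGRG6 (14.0) to ADGRL3. A gap then separated ADGRL3, lowest line 9.27 TPM, from ADGRE5, highest line 7.20 TPM. ADGRE5 encodes CD97, a receptor of leukocytes and many epithelia. After ADGRE5 (mean 5.70 TPM) came ADGRB2 (5.15), ADGRA2 (3.85), ADGRG2 (3.00), ADGRB3 (2.61) and ADGRF4 (2.41), again with overlapping ranges. The 4 remaining genes that passed the filter were ADGRB1 (0.675 TPM), ADGRF5 (0.468), ADGRF3 (0.323) and ADGRE2 (0.170).

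The summed level of the family overlapped between the groups, while the sums of single subfamilies partly did not. The 29 genes summed to 162, 166 and 145 TPM in GST lines 2, 8 and 9 and to 175, 172 and 163 TPM in NOCT lines 4, 11 and 12. Subfamily B summed to 14.7, 8.90 and 10.9 TPM in the GST lines and to 7.44, 5.69 and 2.97 TPM in the NOCT lines. Subfamily G was the reverse, with 13.6, 11.8 and 8.05 TPM against 26.7, 23.2 and 19.9 TPM. Subfamily F was low throughout, at 1.59, 3.16 and 1.36 TPM against 3.37, 4.20 and 6.42 TPM. In these 3 sums the lines fell into separate ranges, and the members with the widest gaps in them were ADGRB3, ADGRG6 and ADGRF4. The ranges were separate in subfamily D too, at no more than 0.105 TPM in any line. The sums of subfamilies A, E, L and V overlapped between the groups. Among single genes, the groups were separate in CPM for 20.0% of all tested genes. A sum can follow a single member, and the sums are given without a test.

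Between the groups, edgeR's quasi-likelihood test called 0 of the 16 tested members at an adjusted p of 0.05, where it called 0.0579% of all 17261 genes. An unadjusted p under 0.05 was found for 5 of the 16, with 13.9% over all genes. Of these members 2 had the higher level in NOCT lines (7.38% of all genes) and 3 the lower (6.52%). On every gene with at least 1 count, without the filter, edgeR called 3 of 29 members, where it called 2.57% of all genes. DESeq2 on the same counts called 2 members, ADGRB3 and ADGRG6, where it called 3.41% of the genes to which it gave an adjusted p. In the authors' deposited table, 3 members have an adjusted p under 0.05, ADGRB3, ADGRG6 and ADGRF4, beside 2.87% of its genes with an adjusted p. Of the 16 log2 fold changes 8 were above and 8 below 0, with a median of -0.04 beside 0.00 over all genes tested. The median size of the fold change was 0.29 on the log2 scale beside 0.19 over all genes. The median SD of log2 CPM within a group was 0.30 beside 0.21. ADGRB3 passed the filter on low counts through its GST lines, so counts over the 16 genes are a description.

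ADGRB3 had by far the lowest fold change among the members. It belongs to the brain angiogenesis inhibitor receptors (subfamily B), which act at synapses and in the uptake of dying cells, and it binds secreted C1q-like proteins. The gene (ENSG00000135298) spans 68635367 to 69389511 of chromosome 6 (GRCh38, plus strand). GST lines 2, 8 and 9 gave 354, 101 and 256 counts, while NOCT lines 4, 11 and 12 gave 7, 13 and 3. That is 18.7, 4.69 and 12.6 CPM against 0.275, 0.583 and 0.151 CPM, and NOCT line 12 was at the counting limit. Every NOCT line was below every GST line, and GST lines 2 and 8 differed from each other 3.98-fold. The means were 12.0 ± 7.02 CPM and 0.336 ± 0.223 CPM (SD, n = 3 each), a ratio of 35.6. With counts summed over the lines, 711 against 23, the ratio was 34.4 with an exact 95% interval of 22.7 to 54.6, which covers counting error only.

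For ADGRB3 edgeR gave -5.12 on the log2 scale (SE 0.63, adjusted p 0.0537), and the exact two-sided permutation test of its CPM gave p = 0.1, the smallest value that 3 lines against 3 allow. It missed the threshold of 0.05 narrowly, and 7 of the 14 alternative analyses, all drawn from the same 6 libraries, passed it. Some alternatives called far more of all genes: 508 in DESeq2 and 893 without NOCT line 12, against 10 in the main fit. For ADGRB3 the adjusted p was 0.0486 with median-ratio size factors in edgeR, 4.05e-17 in DESeq2, 0.0175 without GST line 8 and 0.00881 without NOCT line 12. It was 0.294 without GST line 9, the highest of the 14. The direction was the same in all 14, with log2 fold changes from -5.75 to -4.24 except for -2.27 on the log2(TPM + 1) scale, which compresses low values. In the authors' deposited table ADGRB3 has a shrunken log2 fold change of -2.25 and an adjusted p of 2.07e-19.

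**Figure D2:**
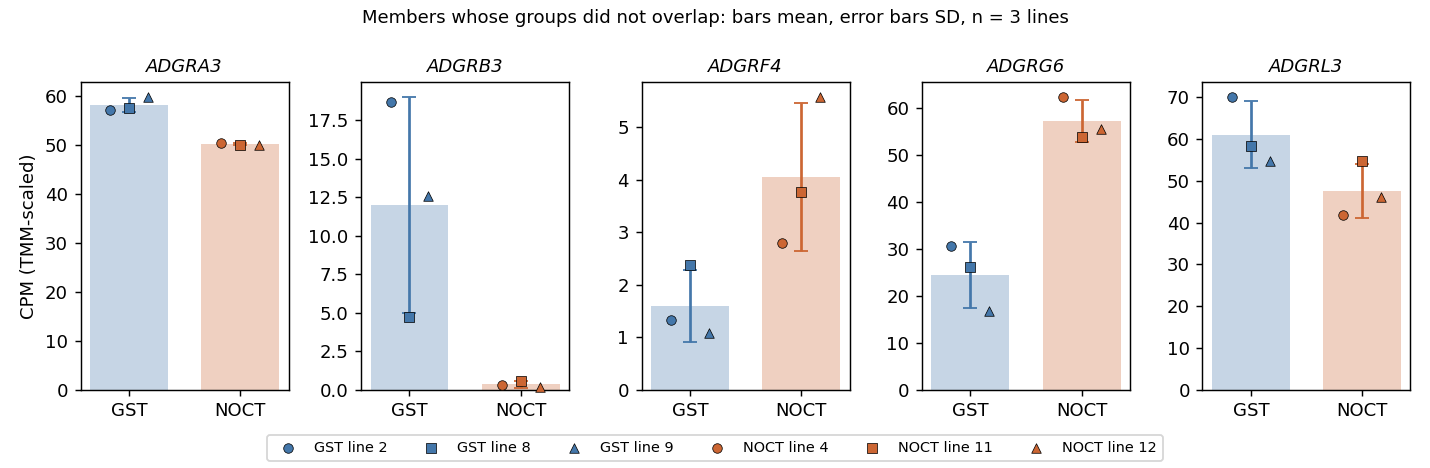
CPM of the 5 members (of 16) whose NOCT and GST lines did not overlap, as in 20.0% of all tested genes, with 1 point per line, bars for the group mean and error bars for the SD (n = 3 lines). ADGRB3 is at 4.69 to 18.7 CPM in GST lines and at 0.151 to 0.583 CPM in NOCT lines, while ADGRA3 and ADGRL3 differ little.

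The other genes of subfamily B had smaller fold changes. ADGRB2 was at 17.4, 16.7 and 13.9 CPM in GST lines 2, 8 and 9 and at 15.8, 12.97 and 6.58 CPM in NOCT lines 4, 11 and 12. NOCT line 12 was low and the groups overlapped (log2 fold change -0.44, SE 0.29, edgeR adjusted p 0.539). ADGRB1 was at 2.59, 1.35 and 1.52 CPM against 2.44, 1.17 and 1.31 CPM, also overlapping (-0.14, SE 0.39, edgeR adjusted p 0.902). Whether ADGRB3 differs from them in response was not tested. The C1q-like ligand genes C1QL1 and C1QL4 were measured at mean levels of 18.1 and 5.67 TPM in GST lines, with log2 fold changes of -0.22 (SE 0.19) and -0.46 (SE 0.30).

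ADGRG6 was higher in the NOCT lines. It encodes the receptor of Schwann cells that starts peripheral myelination, and it binds collagen IV, laminin and the prion protein. The gene (ENSG00000112414) spans 142301854 to 142446266 of chromosome 6, plus strand. It was at 30.6, 26.0 and 16.8 CPM in GST lines 2, 8 and 9 and at 62.3, 53.9 and 55.4 CPM in NOCT lines 4, 11 and 12. The lowest NOCT line was well above the highest GST line, and the NOCT lines were close to each other (the GST lines differed up to 1.82-fold). The means were 24.5 ± 7.03 and 57.2 ± 4.50 CPM (SD, n = 3 each), a ratio of 2.34. This is 1.22 on the log2 scale (SE 0.20, edgeR adjusted p 0.0847, exact permutation p = 0.1, the smallest possible). It stayed between 1.01 and 1.42 in the 14 alternatives, of which 4 passed the threshold. Among them were DESeq2 (adjusted p 3.35e-06) and the fit without NOCT line 12 (edgeR adjusted p 0.0179). The highest adjusted p was 0.269, without GST line 8. DESeq2 called 3.41% of the genes with an adjusted p, and the fit without NOCT line 12 called 5.17%, against 0.0579% in the main fit. The authors' deposited table gives ADGRG6 a shrunken log2 fold change of 1.02 and an adjusted p of 1.82e-06.

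ADGRG2, a receptor of the epididymal duct on the X chromosome, was the only other member of subfamily G that passed the filter. It was at 14.3, 9.80 and 8.90 CPM in GST lines 2, 8 and 9 and at 12.1, 13.7 and 4.67 CPM in NOCT lines 4, 11 and 12, with NOCT line 12 lowest of all 6 (log2 fold change -0.11, SE 0.38, edgeR adjusted p 0.919). ADGRG1, known from cortical development and cytotoxic lymphocytes, had 5, 3 and 1 counts against 14, 12 and 4, too few for the filter.

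Subfamily F holds a cluster of genes on the short arm of chromosome 6, between 46852512 (ADGRF5) and 47722021 (the end of ADGRF4), while ADGRF3 lies on chromosome 2. ADGRF4 was at 1.32, 2.37 and 1.08 CPM in GST lines 2, 8 and 9 and at 2.79, 3.77 and 5.57 CPM in NOCT lines 4, 11 and 12. Each NOCT line was above each GST line, and the ratio of means was 2.54 (log2 fold change 1.33, SE 0.38, edgeR adjusted p 0.21, exact permutation p = 0.1, the smallest possible). Over the alternatives the adjusted p ranged from 0.0205 to 0.59, and DESeq2 gave 0.0505. The authors' deposited table gives ADGRF4 a shrunken log2 fold change of 0.77 and an adjusted p of 0.0368. ADGRF5, which controls surfactant in the lung, was at 0.370, 1.21 and 0.492 CPM against 0.668, 0.987 and 2.76 CPM. Its groups overlapped through GST line 8 (log2 fold change 1.05, SE 0.64, adjusted p 0.5), and without NOCT line 12 the value was 0.24. ADGRF2 had 1, 13 and 2 counts against 7, 10 and 9 and was not tested, and ADGRF1, between ADGRF5 and ADGRF2, had 1 count in all. GST line 8 was highest of the GST lines in ADGRF2, ADGRF4 and ADGRF5. ADGRF2 and ADGRF4 share 77 exon bases on the same strand, from which reads cannot be assigned to either. ADGRF3 was at 0.792, 0.650 and 0.443 CPM against 0.708, 0.494 and 0.803 CPM, with overlapping groups (0.09, SE 0.37).

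Sequences before the RefSeq start sites of ADGRB3, ADGRG6 and ADGRF4 are shown because these members had the widest gaps between the groups. They are from RefSeq on GRCh38.p14, plus strand, 5′ to 3′, limited to bases that lie in no annotated exon, with CG dinucleotides in capitals. That of ADGRB3 is chr6:68635162-68635281, of ADGRG6 chr6:142301757-142301853 and of ADGRF4 chr6:47698403-47698552.
ADGRB3: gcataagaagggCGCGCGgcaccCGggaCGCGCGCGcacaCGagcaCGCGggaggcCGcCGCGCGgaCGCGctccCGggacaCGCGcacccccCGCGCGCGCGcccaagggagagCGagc
ADGRG6: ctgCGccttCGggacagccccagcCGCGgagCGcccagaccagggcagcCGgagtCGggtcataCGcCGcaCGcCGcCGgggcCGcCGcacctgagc
ADGRF4: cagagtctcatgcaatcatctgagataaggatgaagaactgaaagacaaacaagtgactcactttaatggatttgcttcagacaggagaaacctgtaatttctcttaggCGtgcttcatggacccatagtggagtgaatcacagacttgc
The stretch of ADGRB3 holds 26 CG dinucleotides in 120 bases and is 80.8% G or C, and that of ADGRG6 holds 14 in 97 bases (78.4%). That of ADGRF4 holds 1 in 150 bases (42.0%). The last base shown lies 1 base before the RefSeq start of ADGRB3, 154 before that of ADGRG6 and 28 before that of ADGRF4. RefSeq starts differ from the GENCODE spans used for the loci: the stretch of ADGRG6 ends directly before its GENCODE span, and that of ADGRF4 lies inside the GENCODE span, before an internal start.

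RefSeq promoter entries were found for 19 of the 29 members, in 35 entries. Each start of a gene is its own entry, and ADGRL2 and ADGRF3 have several, so entries are not independent. The 23 entries of tested members come from 11 genes, and the 12 of members that were not tested from 8. Over the 250 bases before each start, the median G and C content was 63.2% for the 23 entries of tested members, 55.6% for the 12 of members that were not tested, and 58.0% over 35116 promoters. The E-box CACGTG, read on both strands, occurred in 0 of the 35 entries and in 6.34% of all promoters. The letters AGGTCA, bound by nuclear receptors of the ROR family, occurred on either strand in 4 of the 35 entries, against 12.1% of all promoters. Of these entries 3 are of ADGRF3 and the other is of ADGRE3. The GC box GGGCGG occurred in 14 of the 35 entries, against 42.6%.

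The level of neighbouring genes in each line was put beside that of the members. The 100 nearest expressed genes around ADGRG6 had a median deviation of -0.18 (log2) in GST line 9 and of -0.01 to 0.10 in the other 5 lines. Around ADGRB3 it was -0.20 in GST line 9 and around ADGRF4 -0.16. This line was thus low around these 3 members, which all lie on chromosome 6. The stretches around ADGRF4 and ADGRB3 lie next to each other and can share genes, so they are not separate readings. With an offset for the neighbours the log2 fold change of ADGRB3 was -5.23 (SE 0.63, edgeR adjusted p 0.0286), that of ADGRG6 1.12 (SE 0.16, adjusted p 0.0477) and that of ADGRF4 1.27 (SE 0.34, adjusted p 0.168). Among the 10 nearest tested genes on each side, 0 of 20 had an adjusted p under 0.05 around each of the 3 members. An unadjusted p under 0.05 was found for 3 of 20 around ADGRB3, 2 of 20 around ADGRG6 and 4 of 20 around ADGRF4, beside 13.9% of all tested genes. The median log2 fold change of these neighbours was 0.01, 0.08 and 0.17.

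**Figure D3:**
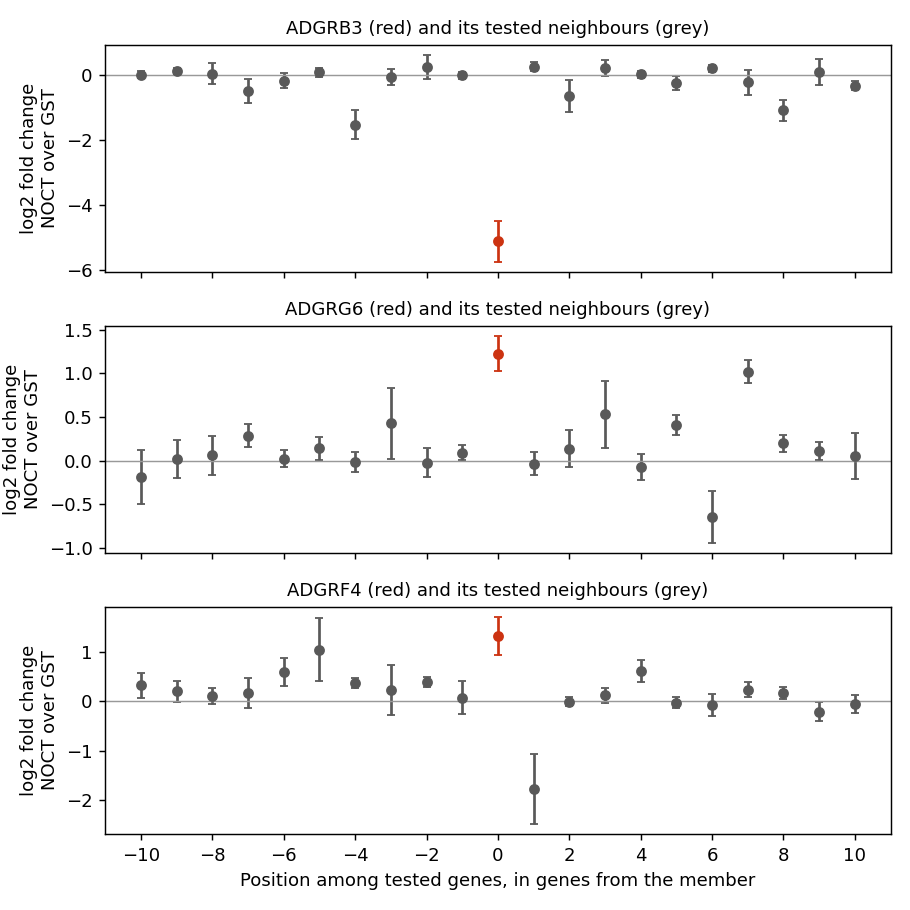
log2 fold change (NOCT over GST lines, bars SE) of ADGRB3, ADGRG6 and ADGRF4 in red and of the 10 nearest tested genes on each side in grey, by position in genes from the member. ADGRB3 is at -5.12 with its neighbours between -1.52 and 0.27, and FUCA2, 7 genes after ADGRG6, is at 1.02.

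The 9 neighbours with an unadjusted p under 0.05 were named after their values were seen. Around ADGRB3 all 3 had lower levels in NOCT lines. AL445250.1, 10.7 Mb before it, was at -1.52 on the log2 scale (SE 0.45) and B3GAT2, 2.22 Mb after it, at -1.08 (SE 0.33), both with separate groups and edgeR adjusted p of 0.217 and 0.228. OGFRL1 was at -0.32 (SE 0.13), with overlapping groups. Around ADGRG6 both had higher levels in NOCT lines, with separate groups. FUCA2, a fucosidase gene 1.19 Mb from ADGRG6, was at 1.02 (SE 0.13, edgeR adjusted p 0.0563), and PEX3 at 0.41 (SE 0.12, adjusted p 0.208). Between ADGRF5 and ADGRF4, inside the cluster, CD2AP and TNFRSF21 were at 0.39 (SE 0.10) and 0.37 (SE 0.10), with separate groups and adjusted p of 0.194 and 0.204. After ADGRF4, PTCHD4 was at -1.78 (SE 0.71) and C6orf141 at 0.61 (SE 0.22), both with overlapping groups.

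Among the latrophilins, no member passed the threshold with all 6 lines. ADGRL3 was at 70.1, 58.4 and 54.7 CPM in GST lines 2, 8 and 9 and at 41.9, 54.7 and 46.1 CPM in NOCT lines 4, 11 and 12. GST line 9 and NOCT line 11 were equal at this precision, and in TPM the groups overlapped. Its log2 fold change was -0.36 (SE 0.14, edgeR adjusted p 0.299), and -0.18 (SE 0.10) with the neighbour offset. The stretch around it on chromosome 4 was at 0.29 in GST line 2 and at -0.11 to 0.02 in the other 5 lines. ADGRL1 was at 47.9, 53.9 and 47.7 CPM against 33.4, 30.1 and 50.6 CPM. NOCT line 12 lay within the GST range and the other 2 NOCT lines below it (log2 fold change -0.39, SE 0.19, adjusted p 0.404). Without NOCT line 12 it was -0.65 (edgeR adjusted p 0.0211), where 5.17% of all genes passed. ADGRL2 was at 171, 166 and 152 CPM against 171, 177 and 177 CPM (0.10, SE 0.09, adjusted p 0.627), and its groups overlapped in CPM but not in the TPM given above. Of their partners, the teneurin gene TENM3 averaged 27.6 TPM in NOCT lines (log2 fold change -0.12, SE 0.13). FLRT2 and FLRT3 were at 5.91 and 4.32 TPM in GST lines, and FLRT1, TENM1 and TENM2 did not pass the filter.

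The remaining tested members showed small or imprecise differences. ADGRA3 was tightly set, at 57.2, 57.6 and 59.9 CPM in GST lines 2, 8 and 9 and at 50.6, 50.1 and 50.1 CPM in NOCT lines 4, 11 and 12. Its groups were separate in CPM (-0.21 on the log2 scale, SE 0.08, edgeR adjusted p 0.316), and overlapped in TPM. ADGRA2, a co-receptor with RECK for WNT7 in brain endothelium, was at 7.55, 11.4 and 10.9 CPM against 7.55, 9.38 and 9.99 CPM (-0.15, SE 0.21), with overlapping groups. Of its exon bases 23.1% are shared with BRF2 on the opposite strand. ADGRE5 was at 8.92, 11.8 and 10.8 CPM against 10.3, 8.66 and 13.7 CPM (0.05, SE 0.21). ADGRE2, a receptor of myeloid cells, was at 0.686, 0.186 and 0.393 CPM against 0.590, 0.359 and 0.854 CPM (0.51, SE 0.54). ADGRV1 was at 247, 233 and 195 CPM against 231, 270 and 189 CPM (0.03, SE 0.15). The groups overlapped in these 3 genes. In CPM the groups were separate for 5 of the 16 members, where they were for 20.0% of all tested genes. NOCT lines were above for ADGRF4 and ADGRG6 (10.5% of all genes) and below for ADGRA3, ADGRB3 and ADGRL3 (9.54%).

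**Figure D4:**
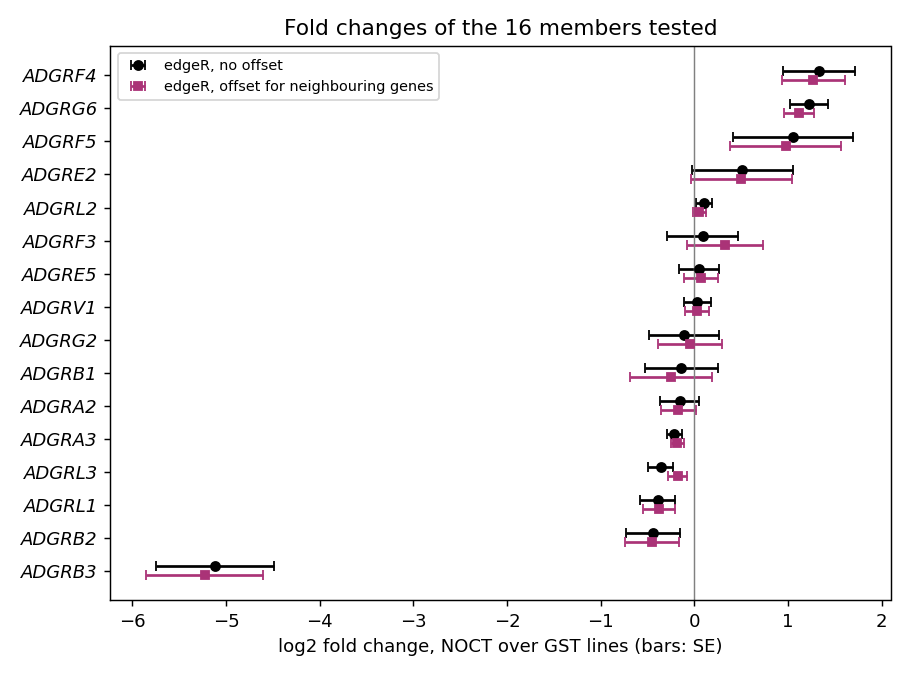
log2 fold changes (NOCT over GST lines) of the 16 tested members with standard errors, in black from the edgeR fit and in purple with an offset for neighbouring genes. ADGRB3 is at -5.12, ADGRF4 and ADGRG6 are at 1.33 and 1.22, and most others lie within 0.5 of 0.

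The seven-pass cadherins CELSR1, CELSR2 and CELSR3 form subfamily C under other symbols and act in planar cell polarity. CELSR1 was at 42.0, 25.6 and 29.7 CPM in GST lines 2, 8 and 9 and at 76.3, 52.7 and 47.5 CPM in NOCT lines 4, 11 and 12 (log2 fold change 0.86, SE 0.23, edgeR adjusted p 0.196). CELSR2 was at 88.8, 87.2 and 90.9 CPM against 70.6, 75.0 and 63.5 CPM (-0.35, SE 0.09, adjusted p 0.194). Both genes had separate groups, with NOCT lines above in CELSR1 and below in CELSR2. CELSR3 was at 8.36 to 9.98 and 8.74 to 10.4 CPM (0.06, SE 0.16).

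Of 33 genes for extracellular partners of these receptors, 23 passed the filter and 0 had an adjusted p under 0.05 in edgeR, with 8 at an unadjusted p under 0.05 (13.9% of all genes). Of these, 4 were higher (7.38% of all genes) and 4 lower (6.52%). DESeq2 called 2, beside 3.41% of all genes, and edgeR without NOCT line 12 called 5, beside 5.17%. The groups were separate for 5 of the 23, beside 20.0% of all genes. Apart from UNC5B, RTN4RL1 and UNC5D, which have the smallest p-values, the 8 are named after their values were seen. UNC5B, a netrin receptor that binds FLRT proteins, was at 36.0, 47.9 and 39.9 CPM against 27.1, 22.6 and 30.0 CPM (-0.64, SE 0.15, edgeR adjusted p 0.165). UNC5D was at 0.422, 0.093 and 0.885 CPM in GST lines 2, 8 and 9 and at 11.7, 12.2 and 0 CPM in NOCT lines 4, 11 and 12, so that 1 NOCT line had 0 counts and the groups overlapped (4.09, SE 1.37, adjusted p 0.254). The Nogo receptors, which bind subfamily B receptors, were RTN4RL1 with -1.52 (SE 0.45, adjusted p 0.217), RTN4RL2 with -0.53 (SE 0.22) and RTN4R with 0.70 (SE 0.25). These 3 are among the 5 with separate groups. Of the ADGRG6 ligands, COL4A1 was at 81.2, 73.3 and 74.4 CPM against 205, 123 and 78.6 CPM (0.83, SE 0.29, adjusted p 0.271), and PRNP at 57.1, 56.6 and 60.8 CPM against 89.4, 93.2 and 60.3 CPM (0.48, SE 0.16, adjusted p 0.257). In both, NOCT line 12 was near the GST lines. The other was NRXN2, with -1.05 (SE 0.45), at 0.528, 0.511 and 0.787 CPM against 0.393, 0.314 and 0.151 CPM. NRXN2 passed the filter on low counts through its GST lines, so counts over the 23 genes are a description.

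Of 29 genes for scaffolds, G proteins and exchange factors on the inside of the membrane, all 29 passed the filter and 0 had an adjusted p under 0.05 in edgeR or DESeq2. Without NOCT line 12, edgeR called 2, beside 5.17% of all genes. With all lines 1 had an unadjusted p under 0.05, beside 13.9% of all genes. This was TIAM1, a RAC exchange factor bound to subfamily B receptors, at 107, 97.7 and 97.0 CPM in GST lines 2, 8 and 9 and at 74.3, 70.2 and 92.5 CPM in NOCT lines 4, 11 and 12 (log2 fold change -0.35, SE 0.12, adjusted p 0.263). Next were GNAI2 with 0.44 (SE 0.19) and GNA12 with -0.26 (SE 0.12). The median size of the fold change over the 29 was 0.15 on the log2 scale, beside 0.19 over all genes tested.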

How the data were processed

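Read counts per gene were deposited by the authors for each of the 6 libraries, with row names as HTSeq writes them. The submitters' processing notes name cutadapt 1.8.1, Trimmomatic 0.33, STAR 2.5.2b, HTSeq 0.6.1p1, DESeq2 1.16.1 and GRCh38, without their order or settings. Libraries were strand-specific 50 bp reads after ribosomal RNA depletion, per the labels' protocols. Rows that name no gene held 42.9% to 47.1% of the reads in a file and were left out. The TPM values per gene were deposited by the authors, with 49 repeated gene rows that were used once. The authors' deposited comparison holds a mean normalised signal, log2 fold changes, standard errors, a Wald score, p-values and adjusted p-values.

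Members were found by symbol in the TPM table and joined by gene identifier to the counts. NOCT lines were compared with GST lines in edgeR 4.0.16 (R 4.3.3) by the quasi-likelihood test with filterByExpr, TMM scaling and Benjamini-Hochberg adjustment over 17261 genes, at an adjusted p of 0.05. Standard errors came from the F statistic. Exact two-sided permutation tests used log2(CPM + 0.5). Alternatives were DESeq2 1.42.0, limma 3.58.1 (voom, log2(TPM + 1), log2(TPM + 0.1)), median-ratio (RLE) and spike-in scaling, no filter, an offset from the 50 nearest genes per side (fewer at chromosome ends) at 1 CPM or more, and leaving out each line. The edgeR, voom and DESeq2 fits were tested on simulated data in which every gene had the same variability. This does not cover genes that vary more between lines, such as ADGRB3 and ADGRF5. Coordinates are from GENCODE release 29 (GRCh38). The members and lists were chosen with earlier results of these data known. Every member is named; of each partner list the 3 with the smallest p-values are named, and CELSR1 to CELSR3 always. Other partner and neighbour genes were named after their values were seen.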

Additional observations from a re-analysis of the deposited data

How the results depend on the processing

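The 16 tested members were refitted under 14 alternatives, which gave 224 fold changes. Of these, 199 kept their direction and their side of the threshold, 13 kept their direction and passed it, and 12 changed sign. The changes of sign were all in members with small fold changes. Under spike-in totals as library sizes, with which the median over all genes moved to 0.15 (log2), ADGRG2 was at 0.041. Without GST line 2, ADGRB1 was at 0.20, ADGRE5 at -0.05 and ADGRG2 at 0.12. Without GST line 9, ADGRF3 was at -0.11 and ADGRV1 at -0.06. Without NOCT line 11, ADGRB1 was at 0.05 and ADGRV1 at -0.10. Without NOCT line 12, ADGRB1 was at 0.001, ADGRE5 at -0.15, ADGRF3 at -0.05 and ADGRG2 at 0.23. Over the 6 fits that leave out a line the range was -0.56 to 0.20 for ADGRB1, -0.15 to 0.19 for ADGRE5, -0.11 to 0.28 for ADGRF3, -0.39 to 0.23 for ADGRG2 and -0.10 to 0.16 for ADGRV1. The count of members called was 0 in edgeR (0.0579% of all genes) and 2 in DESeq2 (3.41% of genes with an adjusted p). On every gene with at least 1 count it was 3 (29 members tested), beside 2.57% of all genes. It was 1 with RLE size factors (12 of all 17261 genes), 1 with spike-in totals (22 genes) and 2 with the neighbour offset (37 genes). When a line was left out it was 0 to 3. It was 1 without GST line 8 (6 of all genes) and 3 without NOCT line 12 (5.17% of all genes). Extracellular partners called were 2 in DESeq2 (3.41% of genes with an adjusted p) and 5 on every gene with at least 1 count (2.57%). They were 0 to 5 when a line was left out, with 5 without NOCT line 12 (5.17% of all genes). Intracellular partners called were 0 to 2 when a line was left out, with 2 without NOCT line 12 (5.17%). Over all genes, the 10 calls became 508 in DESeq2, 16 in voom, 22 with spike-in totals, 888 on every gene with at least 1 count, 37 with the neighbour offset, 6 on log2(TPM + 1) and 0 (without GST line 9, with 1420 at an unadjusted p under 0.05) to 893 (without NOCT line 12) when a line was left out. The cause was not tested. No paired analysis was possible because the groups share no line number. Depth limits ADGRB3 in the NOCT lines and the 13 members that did not pass the filter. It also limits ADGRE2 (4 to 17 counts a library), ADGRF3 (9 to 18) and ADGRF5 (7 to 55).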

Other observations

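The 6 rows with an ADGR symbol that are not receptor genes were at or near 0. The pseudogene ADGRE4P had 5 counts in NOCT line 11, 1 in GST line 8 and 0 in the other 4 libraries. ADGRF5P1 had at most 1 count in a library and ADGRA1-AS1 at most 2. ADGRF5P2 and ADGRL3-AS1 had 0 counts in all 6 libraries.

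The order of the lines within a group differed from member to member. GST line 2 was the highest GST line in 10 of the 16 tested members and GST line 9 the lowest in 9. NOCT line 12 was the highest NOCT line in 8 and the lowest in 4. The lines of a group differed most in ADGRF5, with a largest over smallest CPM of 4.13 in the NOCT lines, and in ADGRB3, with 3.98 in the GST lines.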
